A study of Mus musculus with 8 samples.

Results

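Nephron progenitors are the cells of the cap mesenchyme that surround the tips of the branching ureteric bud in the developing kidney and give rise to every epithelial segment of the nephron. They renew themselves under the transcription factor Six2, and they leave this state when a Wnt signal from the bud starts their conversion into pretubular aggregates and renal vesicles. Cited1 is known as a marker of the earliest, uncommitted progenitors, whereas Six2 transcripts are also found in progenitors that have begun to respond. A set of 9 genes known from this compartment was read here: Six2, Cited1, Eya1, Osr1, Sall1, Meox1, Itga8, Uncx and Crym. They were taken by symbol from a table of 49315 Ensembl genes, and all 9 were matched and passed the filter on low counts.

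Messenger RNA of whole mouse kidney was sequenced in 4 control samples and 4 conditional knockout samples, the targeted gene being Kdm1a, which encodes the histone demethylase LSD1. Per the labels, the groups differ in genotype alone (Control, called wild type in the extraction protocol, or Conditional Knockout) and share the tissue. Age, strain, sex, the alleles and the driver of the recombinase are not given in the labels used here, so the kidney cells that lost the gene cannot be named. The comparison asks which transcripts differ when Kdm1a is lost in the kidney. Because whole tissue was used, fewer cells of a type and less RNA per cell cannot be told apart in any value below.

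Libraries held between 19524945 and 28544511 counts. Kdm1a itself stood at 110 to 120 counts per 1000000 counts of the library (CPM, scaled by trimmed mean of M values) in controls and at 90.9 to 95.3 CPM in knockouts. Its log2 fold change was −0.27 (SE 0.05, edgeR adjusted p 0.0194), with counts summed over all exons. It stayed between −0.29 and −0.24 in 18 alternative fits. The adjusted p was under 0.05 in 12 of these, among them 3 of the 8 that left out 1 library, and at most 0.0765. The kidney genes Lrp2 and Pax2 were present in all 8 libraries. Transcripts of Y-linked Ddx3y reached at least 75.5 CPM in 5 libraries and at most 1.08 CPM in control replicate 2 and knockout replicates 1 and 4. The summed level of 12 adrenal genes was 2755 CPM in knockout replicate 1, 413 CPM in knockout replicate 4, 162 CPM in control replicate 4 and at most 29.7 CPM in the other 5 libraries. Control replicate 2 stood apart from the other controls. Chi-square values per degree of freedom between its counts over all genes and those of another library were 16.3 to 20.7 with the 4 knockouts and 31.8 to 56 with the other controls, which were at 11 to 18 among themselves. At 112 CPM its Kdm1a level lay within the control range. Values for the 9 genes are given with and without it. Of 18485 genes tested, 14.9% differed at an adjusted p under 0.05, 6.61% higher and 8.27% lower in the knockout, and this threshold is what "called" refers to below.

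The genes separated into a pair that fell and 7 others that were not called. Cited1 and Meox1 were lower in all 4 knockouts than in all 4 controls, to 0.322 and 0.366 of the control level. The other 7 had fold changes between 1.03 and 1.38, with overlapping groups and no call. Of these, Six2, Osr1, Sall1, Itga8 and Crym were called higher in 3, 2, 4, 2 and 4 of 18 alternative fits, and Eya1 and Uncx in 0. The 2 of 9 called compare with 14.9% of all genes tested. The median log2 fold change over the 9 was 0.27, against 0.00 over all genes tested.

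**Figure D1:**
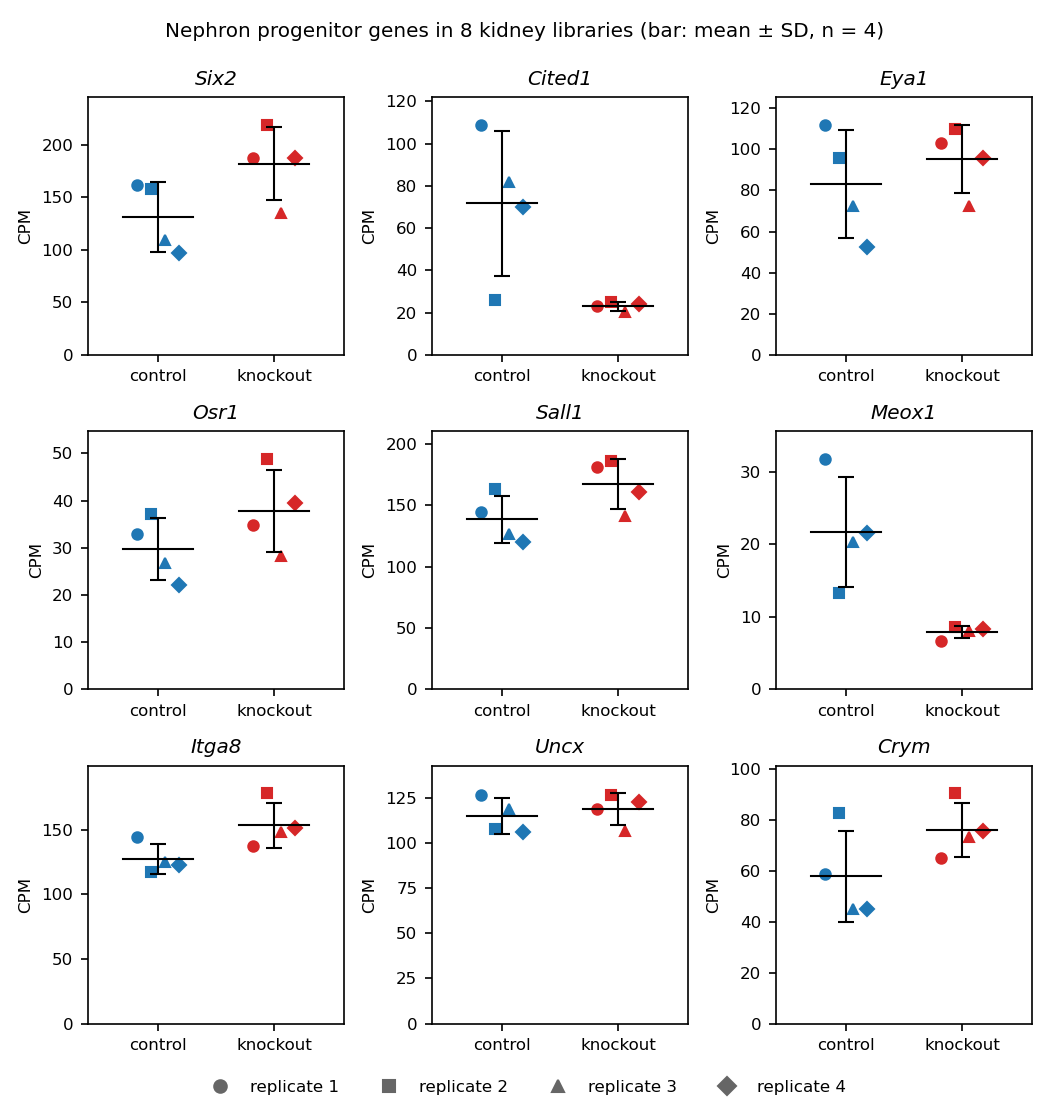
Level of each gene (vertical axis, CPM, from 0) in 4 control and 4 knockout kidney libraries; symbols mark the replicate, and the black bar and whiskers give the mean and SD. Cited1 and Meox1 sit lower in every knockout than in any control, and control replicate 2 is the lowest control for both; the other 7 genes overlap between the groups.

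Six2 (ENSMUSG00000024134, chromosome 17, 85684277 to 85688274, minus strand, GRCm38) encodes the homeobox factor that keeps progenitors from differentiating. Cited1 (ENSMUSG00000051159, chromosome X, 102247381 to 102252181, minus strand) encodes a transcriptional coactivator without a DNA-binding domain of its own. The 250 bases before a RefSeq start of each gene (GRCm38.p6, chr17:85688255-85688504 and chrX:102252182-102252431, both minus strand) are shown because the levels of these progenitor markers moved apart. The RefSeq start of Six2 lies inside the span given above, so bases 85688255 to 85688274 of that span are part of its stretch. Capitals mark matches on either strand to the CCAAT motif, to the letters TATAAA of the TATA box or to the core of the Tcf/Lef motif, spelled TCAAAG.
Six2: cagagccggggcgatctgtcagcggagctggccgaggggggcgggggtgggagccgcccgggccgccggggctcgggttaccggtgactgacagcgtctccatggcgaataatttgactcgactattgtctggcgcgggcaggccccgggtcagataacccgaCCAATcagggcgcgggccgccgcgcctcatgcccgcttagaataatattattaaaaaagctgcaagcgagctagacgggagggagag
Cited1: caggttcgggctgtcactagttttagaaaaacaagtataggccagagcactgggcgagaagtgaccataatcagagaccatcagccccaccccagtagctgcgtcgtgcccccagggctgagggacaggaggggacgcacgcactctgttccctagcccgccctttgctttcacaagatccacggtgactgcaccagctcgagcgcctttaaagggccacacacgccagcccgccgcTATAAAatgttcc

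The Six2 stretch held CCAAT from position −87, counted back from the start, and neither of the other 2 motifs. The Cited1 stretch held TATAAA from position −13 and neither of the others. Over 32851 stretches of the same length, 33.8% held CCAAT, 12.4% TATAAA and 13.8% TCAAAG on either strand, so these matches are common ones. GC made up 64.8% of the Six2 stretch and 58.0% of the Cited1 stretch, against a median of 52.4% over all stretches. RefSeq lists 3 starts for Cited1, of which the outermost is shown. The table of starts held 5 of the 9 genes (Six2, Cited1, Sall1, Itga8 and Uncx).

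Cited1 was at 109, 26.2, 81.8 and 70.0 CPM in control replicates 1 to 4 and at 23.2, 24.9, 20.1 and 24.2 CPM in knockout replicates 1 to 4. The 4 knockouts lay within 5 CPM of one another, while control replicate 2 lay just above the highest knockout and far below the other controls. The mean was 71.7 ± 34.5 CPM in controls and 23.1 ± 2.10 CPM in knockouts (SD, n = 4 each). This was a log2 fold change of −1.64 (SE 0.35, 95% interval −2.42 to −0.85, edgeR adjusted p 0.0225), so the level fell by 67.8%. Counts of the gene ran from 496 to 2660 per library, which leaves little counting error. Without control replicate 2 the log2 fold change was −1.91 (adjusted p 0.000599). The call was lost without control replicate 1 (−1.34, adjusted p 0.0619), control replicate 3 (−1.57, 0.0689) or control replicate 4 (−1.66, 0.0542). It was also lost without knockout replicate 1 (−1.64, adjusted p 0.0638), knockout replicate 2 (−1.67, 0.0607) or knockout replicate 4 (−1.64, 0.0744), and with a covariate for adrenal transcripts (−1.65, 0.0561). Calls were fewer over the whole table as well. With all libraries 2751 genes were called, against 536, 374 and 695 without control replicates 1, 3 and 4. The fits without knockout replicates 1 and 2 called 567 and 596 genes, and the fit with the adrenal covariate 1222.

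Meox1 (ENSMUSG00000001493, chromosome 11, 101877510 to 101894374, minus strand) encodes a mesodermal homeobox factor best known from somites. It was at 31.8, 13.3, 20.3 and 21.6 CPM in control replicates 1 to 4 and at 6.72, 8.63, 8.06 and 8.38 CPM in knockout replicates 1 to 4. As for Cited1, the knockouts were close together and control replicate 2 was the lowest control, here clear of the highest knockout. Means were 21.7 ± 7.64 and 7.95 ± 0.855 CPM (SD, n = 4 each), and the gene fell by 63.4%, a log2 fold change of −1.45 (SE 0.24, 95% interval −1.99 to −0.92, edgeR adjusted p 0.0132). It was −1.63 (adjusted p 0.00086) without control replicate 2. The call held in 17 of 18 alternative fits and was lost without knockout replicate 4 (−1.46, adjusted p 0.0530). In that fit the targeted gene Kdm1a was not called either (adjusted p 0.0765). Non-overlapping groups with the knockouts lower were found for 9.58% of all genes tested.

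Cited1 is X-linked, and control replicate 2 is among the 3 libraries without Y-linked transcripts. In the 3 controls and 2 knockouts with Y-linked transcripts, the log2 fold change of Cited1 was −1.95 (edgeR adjusted p 0.0157) and that of Meox1 −1.55 (adjusted p 0.0174). That fit called 16.7% of all genes it tested. Over all 8 libraries, with a covariate for the Y-linked level, they were −1.38 (adjusted p 0.0470) and −1.30 (adjusted p 0.0178), in a fit that called 11.2% of all genes. Among the libraries without Y-linked transcripts, Cited1 stood at 26.2 CPM in the control and at 23.2 and 24.2 CPM in the knockouts, and Meox1 at 13.3 CPM against 6.72 and 8.38 CPM. That subset holds 1 control and allows no test.

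Six2 was not called. It was at 162, 158, 109 and 96.9 CPM in control replicates 1 to 4 and at 187, 219, 135 and 187 CPM in knockout replicates 1 to 4. Knockout replicate 3 lay below control replicates 1 and 2, and the other knockouts lay above every control. The mean was 132 ± 33.5 CPM in controls and 182 ± 34.8 CPM in knockouts (SD, n = 4 each), a log2 fold change of 0.47 (SE 0.20, 95% interval 0.02 to 0.91, edgeR unadjusted p 0.0413, adjusted p 0.127). Its sign was positive in all 18 alternatives, from 0.34 to 0.68. It was called upward in 3 of them: with limma-voom and sample weights (0.61, adjusted p 0.0134), with the replicate number as a block (0.48, 0.0390), and without control replicate 2 and knockout replicate 3 together (0.68, 0.0160). These fits called 44.9%, 17.5% and 42.7% of all genes they tested. Without control replicate 2 alone the log2 fold change was 0.57 and not called (adjusted p 0.0569).

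Relative to Six2, the pair that fell can be read within each library, free of library scaling. Six2 itself averaged 132 CPM in controls and 182 CPM in knockouts without being called, and a higher Six2 level lowers every ratio. For every 100 counts of Six2 there were 67.3, 16.5, 75.2 and 72.3 counts of Cited1 in control replicates 1 to 4 and 12.4, 11.4, 14.9 and 13.0 in knockout replicates 1 to 4. Control replicate 2 again lay next to the knockouts and above all of them. Meox1 had 19.6, 8.37, 18.6 and 22.3 counts per 100 counts of Six2 in the controls and 3.60, 3.94, 5.97 and 4.49 in the knockouts. For Eya1 the ratio was 62.5 ± 6.83 in controls and 52.5 ± 2.28 in knockouts, and for Osr1 it was 22.8 ± 1.77 and 20.7 ± 1.55 (SD, n = 4 each), with overlapping groups. The ratios of Sall1, Itga8, Uncx and Crym overlapped as well. These ratios are descriptions and were not tested.

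**Figure D2:**
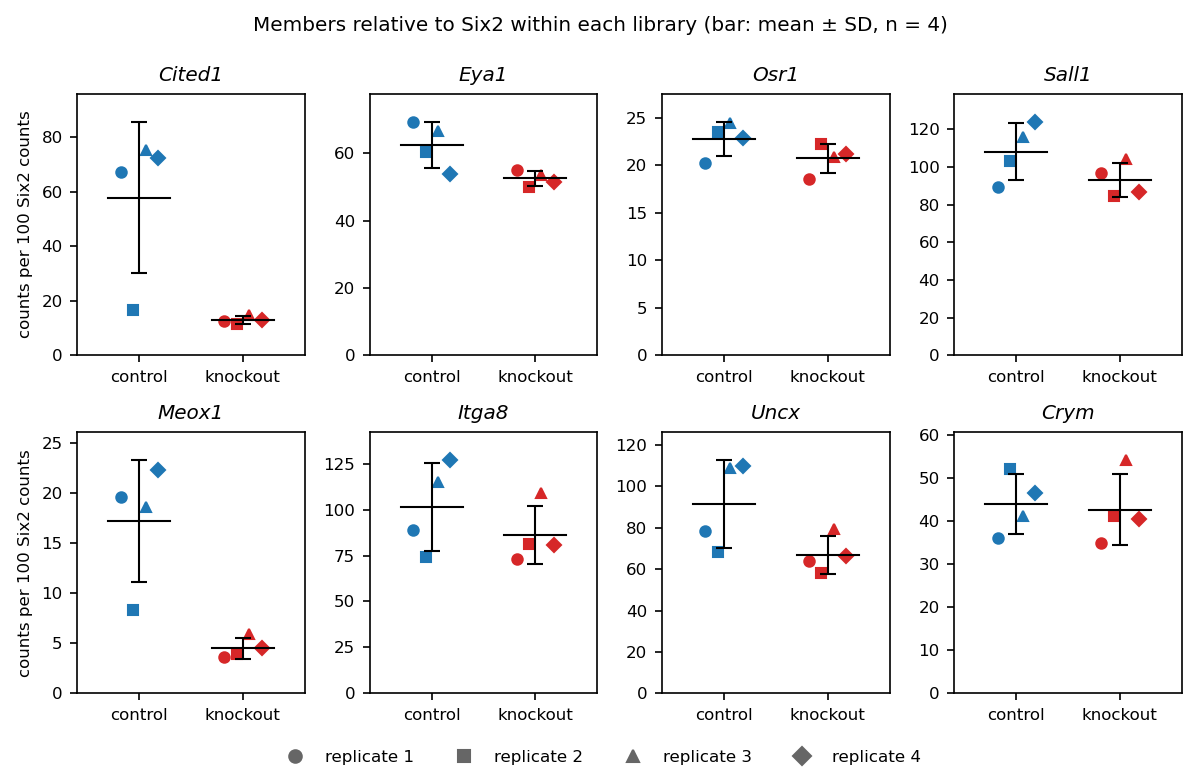
Counts of 8 genes per 100 counts of Six2 in the same library (vertical axes, from 0) for 4 control and 4 knockout kidneys; the black bar and whiskers give the mean and SD. The ratios of Cited1 and Meox1 to Six2 are lower in all 4 knockouts than in all 4 controls, and the other 6 overlap.

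Eya1, Sall1 and Osr1 encode regulators that act with or before Six2. Eya1 (ENSMUSG00000025932, chromosome 1, 14168954 to 14310235) encodes a phosphatase and coactivator that binds Six2. It was at 112, 95.6, 72.5 and 52.3 CPM in the controls and 103, 110, 72.3 and 95.8 CPM in the knockouts, so the knockouts all lay within the control range. Its log2 fold change was 0.19 (95% interval −0.31 to 0.70, edgeR adjusted p 0.556), and 0.27 (adjusted p 0.415) without control replicate 2.

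Sall1 (ENSMUSG00000031665, chromosome 8, 89027235 to 89044162) encodes a zinc finger factor needed for the growth of the ureteric bud into the mesenchyme. It was at 145, 163, 127 and 120 CPM in the controls and 181, 186, 141 and 161 CPM in the knockouts. Knockout replicates 3 and 4 lay within the control range and the other two above it. The log2 fold change was 0.27 (95% interval 0.00 to 0.54, edgeR adjusted p 0.137), and it was called without control replicate 2 (0.35, adjusted p 0.0316), a fit that called 37.4% of all genes. Its other calls were with limma-voom (0.34, adjusted p 0.0120), with the replicate block (0.27, 0.0430) and without control replicate 2 and knockout replicate 3 together (0.43, 0.00584).

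Osr1 (ENSMUSG00000048387, chromosome 12, 9574442 to 9581499) encodes a zinc finger factor of the intermediate mesoderm, from which the kidney arises. It was at 32.9, 37.2, 26.7 and 22.1 CPM in the controls and 34.8, 48.8, 28.2 and 39.5 CPM in the knockouts. The groups overlapped, with knockout replicates 2 and 4 above every control. Its log2 fold change was 0.35 (95% interval −0.10 to 0.79, edgeR adjusted p 0.234), and 0.47 (adjusted p 0.0877) without control replicate 2. It was called with limma-voom (0.45, adjusted p 0.0384) and without control replicate 2 and knockout replicate 3 together (0.59, 0.0230).

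Itga8 (ENSMUSG00000026768, chromosome 2, 12106632 to 12301922) encodes the integrin chain that receives nephronectin from the ureteric bud, and it is also found in mesangial and smooth muscle cells. It was at 144, 117, 125 and 123 CPM in the controls and 137, 178, 148 and 151 CPM in the knockouts, so control replicate 1 lay above knockout replicate 1 and below the others. The log2 fold change was 0.27 (95% interval 0.05 to 0.48, edgeR unadjusted p 0.0207, adjusted p 0.0860), and 0.23 (adjusted p 0.102) without control replicate 2. It was called with limma-voom (0.24, adjusted p 0.0395) and with the covariate for the Y-linked level (0.31, 0.0495). An antisense gene, E030013I19Rik, overlaps its exons at 7.27 to 13.2 CPM, and since the strand setting of the counting is not given in the sources used here, reads of this pair cannot be told apart. No exon of another annotated gene overlaps an exon of the other 8 genes.

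Uncx and Crym are markers of the cap mesenchyme. Uncx (ENSMUSG00000029546, chromosome 5, 139543494 to 139548179), which encodes a homeobox factor, was the steadiest of the 9, at 106 to 127 CPM in controls and 107 to 127 CPM in knockouts. Its log2 fold change was 0.05 (95% interval −0.13 to 0.23, edgeR adjusted p 0.690), an interval that excludes the sizes measured for Cited1 and Meox1, and 0.02 (adjusted p 0.887) without control replicate 2. Crym (ENSMUSG00000030905, chromosome 7, 120186380 to 120202111) encodes mu-crystallin, a protein that binds thyroid hormone. It was at 58.5, 82.8, 44.8 and 45.0 CPM in the controls and 65.0, 90.3, 73.2 and 75.6 CPM in the knockouts, where control replicate 2 lay among the knockouts and the other controls below them. Its log2 fold change was 0.40 (95% interval −0.05 to 0.84, edgeR adjusted p 0.182). Without control replicate 2 it was 0.62 and called (adjusted p 0.00821), as also in the libraries with Y-linked transcripts (0.73, adjusted p 0.0288). It was called too with limma-voom (0.60, adjusted p 0.00653) and without control replicate 2 and knockout replicate 3 together (0.64, 0.00928).

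**Figure D3:**
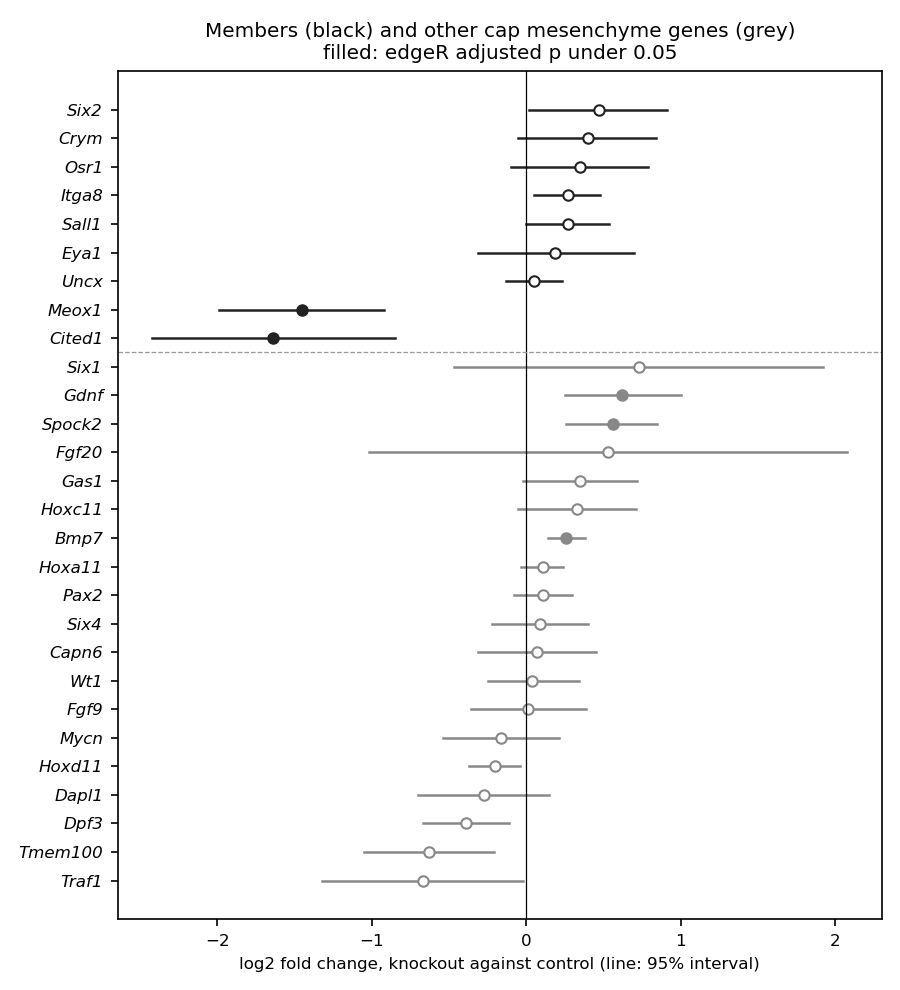
Log2 fold change of knockout against control (horizontal axis) with its 95% interval for the 9 genes (black) and 19 other cap mesenchyme genes (grey); filled circles have an edgeR adjusted p under 0.05. Cited1 and Meox1 lie at −1.64 and −1.45, below every other gene plotted, and Gdnf, Spock2 and Bmp7 are the called genes on the right.

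Levels per length of exon allow the genes to be ranked against each other. The length covers all annotated exons of a gene, such as 7808 bases for Eya1 and 2010 for Osr1. It need not be that of the transcript present, so the ranks depend on the annotation. On the scale of CPM per 1000 bases, Six2 was the highest of the 9 in every library, at 45.7 to 76.4 in controls and 63.7 to 103 in knockouts. Cited1 was the second highest in control replicates 1, 3 and 4, at 39.9 to 62.1, and it ranked 7 of 9 in control replicate 2 and in all 4 knockouts, at 11.5 to 14.9. Meox1 had the lowest mean in both groups, 9.76 ± 3.44 and 3.57 ± 0.387 CPM per 1000 bases (SD, n = 4 each). Its mean in controls lay within 1 SD of that of Eya1, 10.6 ± 3.37. Itga8, Crym and Osr1 had control means of 17.3 ± 1.61, 17.1 ± 5.26 and 14.8 ± 3.31 CPM per 1000 bases and did not differ beyond their spread. Sall1 at 26.3 ± 3.63 and Uncx at 36.7 ± 3.12 lay between these and Six2.

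Among 14068 other tested genes of at least 1 CPM, those whose log2 CPM followed each member most closely over the 8 libraries were sought by the root mean square difference after each gene's mean was subtracted. For Cited1 the nearest were Hsd11b1 (0.280), Meox2 (0.294) and Meox1 (0.299). Meox2, a paralog of Meox1, was at 11.8 CPM in controls and 4.42 CPM in knockouts on average. For Meox1 they were Lamp5 (0.133), H2-Eb1 (0.153) and Col11a2 (0.264), and Cited1 ranked 14. Closest to Six2 were Foxd2os (0.091), Cadm1 (0.101) and Cped1 (0.105), with Osr1 ranked 4. Those of Osr1 were Etv5 (0.087), Twist1 (0.092) and Gas1 (0.105). Eya1 was followed by Zbed5 (0.114), Wt1os (0.145) and Rhebl1 (0.148), and Crym by Cd83 (0.075), Antxr1 (0.080) and Igf2 (0.085). Neighbours are named only for genes that spanned more than 1 on the log2 scale, so those of Sall1, Itga8 and Uncx, which spanned less, are left out.

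The other cap mesenchyme genes were read from a list of 19. Of these, 3 were called higher and 0 lower, where 6.61% of all genes were called higher and 8.27% lower. Their median log2 fold change was 0.09. Spock2, a matrix proteoglycan gene, rose from 232 ± 42.7 to 341 ± 37.9 CPM (0.56, edgeR adjusted p 0.0279). Gdnf, the progenitors' signal to the ureteric bud, was at 48.4 to 72.8 CPM in controls and 79.1 to 116 CPM in knockouts, with no overlap, with a difference of 0.62 on the log2 scale (adjusted p 0.0390). Bmp7, which supports progenitor survival, was at 115 to 128 CPM in controls and 140 to 147 CPM in knockouts (0.26, adjusted p 0.0215). Pax2 and Wt1, factors upstream of Gdnf, had log2 fold changes of 0.11 (adjusted p 0.372) and 0.04 (adjusted p 0.826). At an unadjusted p under 0.05 a further 4 genes were lower, Tmem100, Dpf3, Traf1 and Hoxd11, named after their values were seen, at adjusted p values of 0.0508, 0.0627, 0.133 and 0.0906. In fits without control replicates 1 to 4 the list had 1, 5, 0 and 1 genes called higher, and without knockout replicates 1 to 4 it had 0, 0, 3 and 0. Over all genes 297, 3486, 200 and 347 were called higher without control replicates 1 to 4, against 1222 with all libraries. Without knockout replicates 1 and 2 the numbers were 356 and 318. Genes of the list called lower numbered 3 without control replicate 2, 0 without any other single library, 2 by DESeq2 and 4 by limma-voom. Over all genes DESeq2 called 2509 lower and limma-voom 4241, against 1529 by edgeR.

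Genes of the committed nephron lie on the other side of the switch that progenitors pass. Of 17 tested, 0 were called higher and 4 lower, with a median log2 fold change of −0.44, where 8.27% of all genes were called lower. Lhx1, a factor of the renal vesicle, was at 46.3 to 64.2 CPM in controls and 29.4 to 41.6 CPM in knockouts. The groups did not overlap, and its log2 fold change was −0.73 (edgeR adjusted p 0.0173). The Notch ligand gene Dll1 changed by −0.94 (adjusted p 0.0324) and Irx3 by −1.08 (adjusted p 0.0309). Ccnd1, named because it completes the called genes, changed by −0.44 (adjusted p 0.0473). By sign, 13 of the 17 were negative and 4 positive. Among the positive genes Lef1, named after its values were seen, did not overlap between groups and was not called. It was at 8.89 to 13.7 CPM in controls and 15.2 to 18.5 CPM in knockouts (0.50, adjusted p 0.0575). Wnt4, which drives the conversion to epithelium, had a log2 fold change of 0.03 (95% interval −0.38 to 0.44, adjusted p 0.929), a sign that turned in 4 of the fits without 1 library. The number called lower was 0, 8, 0 and 1 without control replicates 1 to 4 and 2, 1, 6 and 0 without knockout replicates 1 to 4, and 1 was called higher without control replicate 2. Over all genes 239, 3598, 174 and 348 were called lower without control replicates 1 to 4, against 1529 with all libraries. Without knockout replicates 1 and 2 the numbers were 211 and 278.

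**Figure D4:**
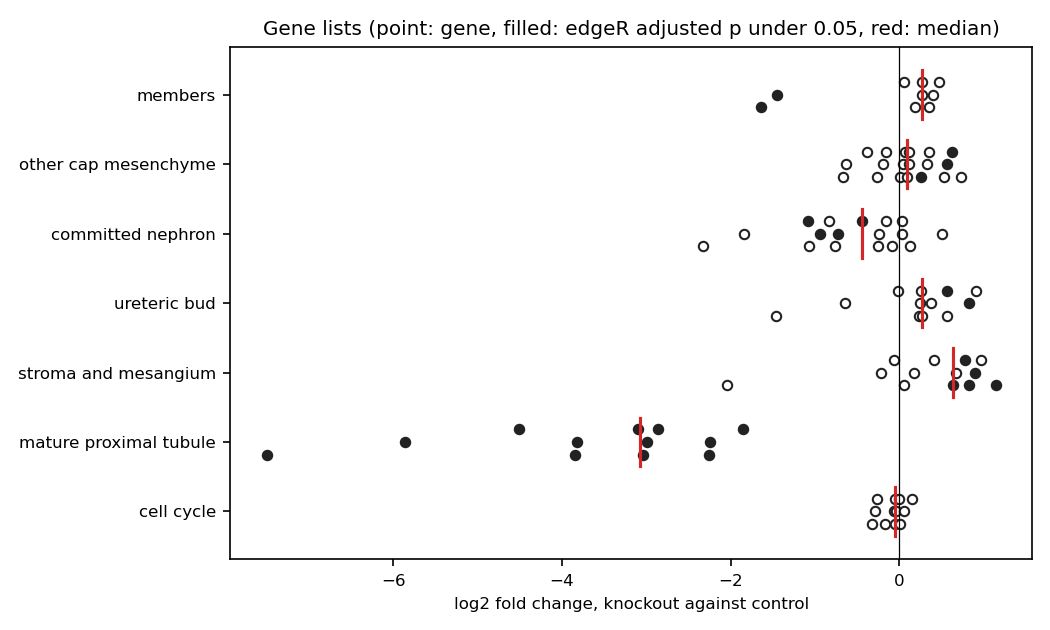
Log2 fold change of knockout against control (horizontal axis) for the genes of 7 lists; each circle is a gene, filled where the edgeR adjusted p was under 0.05, and the red line is the median of the list. The 9 genes have a median of 0.27 with Cited1 and Meox1 apart on the left, the committed nephron genes a median of −0.44 and the mature proximal tubule genes one of −3.07.

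The cells that signal to the progenitors were read from 2 further lists. Of 12 ureteric bud genes, Ret (log2 fold change 0.82, edgeR adjusted p 0.0437) and Gata3 (0.56, adjusted p 0.0364) were called higher and 0 lower. The median of the 12 was 0.27, with 9 positive and 3 negative. Wnt7b, named after its values were seen, was the lowest (−1.46, adjusted p 0.132, groups overlapping). Over all genes tested 6.61% were called higher. Wnt9b, the bud's inducing signal to the progenitors, was at 33.4 to 44.5 CPM in controls and 35.3 to 62.8 CPM in knockouts (0.27, adjusted p 0.274). Of 13 stroma and mesangium genes 5 were called higher and 0 lower. These were Pdgfra (0.90, adjusted p 0.00575), Fat4 (1.14, 0.0191), Aldh1a2 (0.78, 0.0267), Meis1 (0.83, 0.0274) and Foxd1 (0.64, 0.0477), of which Foxd1 marks the stromal progenitors next to the cap. The median of the 13 was 0.64, with 10 positive and 3 negative. Ren1, also named after its values were seen, was the lowest (−2.04, adjusted p 0.148, groups overlapping). Ureteric bud genes called higher numbered 0, 5, 0 and 0 without control replicates 1 to 4 and 0, 0, 3 and 0 without knockout replicates 1 to 4. A further 1 was called lower without control replicate 2, and a further 2 without knockout replicate 3. Stromal genes called higher numbered 1, 9, 1 and 2, and 1, 1, 5 and 1, in the same order, with 0 lower in these 8 fits. Genes called higher over the whole table numbered 297, 3486, 200 and 347 without control replicates 1 to 4. They numbered 356 and 318 without knockout replicates 1 and 2.

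Other markers moved with the groups or stood in single libraries. All 12 mature proximal tubule genes were called lower, led by Pck1 (log2 fold change −3.85), Kap (−7.50) and Gatm (−2.99), with edgeR adjusted p values of 0.00724, 0.0108 and 0.0110. Their summed level was 486 to 2036 CPM in controls, lowest in control replicate 2, and 45.0 to 257 CPM in knockouts. The part of this difference in the levels of the 9 genes was not tested. The number called was 6, 12, 6 and 7 without control replicates 1 to 4 and 5, 10, 12 and 1 without knockout replicates 1 to 4. Genes called lower over the whole table numbered 239, 3598, 174 and 348 without control replicates 1 to 4. They numbered 211 and 278 without knockout replicates 1 and 2. Of 12 cell cycle genes 0 were called by edgeR in either direction, 4 were lower at an unadjusted p under 0.05, DESeq2 called 2 lower, and limma-voom called 1 higher and 4 lower. Of 11 adrenal genes tested 0 were called by edgeR, while 7 were higher at an unadjusted p under 0.05 and DESeq2 called 5 higher. Over all genes DESeq2 called 1997 higher and 2509 lower, and limma-voom called 44.9% of 18485. The share of all genes at an unadjusted p under 0.05 was not counted. With a covariate for adrenal transcripts Meox1 was still called (−1.39, adjusted p 0.0369), where 6.61% of all genes were. Ovary and oocyte genes summed to 17.3 CPM in control replicate 2 and to at most 9.84 CPM elsewhere, with Oosp1 at 0 in every library. Of the 3 tested, Ooep was called higher (1.27, edgeR adjusted p 0.0168), where 6.61% of all genes were. Ooep did not follow the summed level, at 1.82 to 3.15 CPM in controls and 4.42 to 7.09 CPM in knockouts. In control replicate 2 it was at 3.15 CPM.

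**Figure D5:**
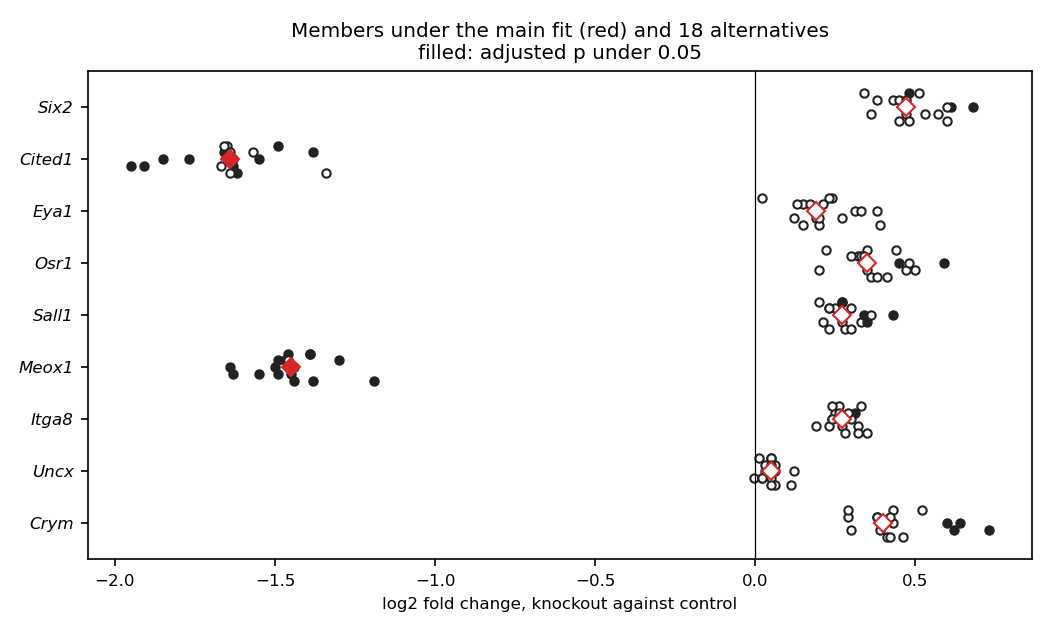
Log2 fold change of the 9 genes (horizontal axis) with all libraries by edgeR (red diamonds) and under 18 alternative fits (black circles); filled symbols have an adjusted p under 0.05. Cited1 ranges from −1.95 to −1.34 and Meox1 from −1.64 to −1.19, while the other 7 lie between −0.003 and 0.73.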

How the data were processed

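Frozen kidney was the source of the RNA, messenger RNA was enriched with oligo-dT beads and libraries were made with a NEBNext Ultra kit, per the labels' protocols. The submitters' processing notes name Trimmomatic 0.36, STAR 2.5.2b, featureCounts of Subread 1.5.2 and DESeq2 with GRCm38. The authors deposited whole-number counts per gene without normalization, with exon coordinates and lengths, per the file headers. The series table and the tables per library differed in 0 cells. Symbols and spans came from GENCODE M21, where 91.4% of spans were identical.

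Genes kept by filterByExpr (18485) entered edgeR's quasi-likelihood test (edgeR 4.0.16, R 4.3.3, TMM, no covariate), with Benjamini-Hochberg adjustment over all of them. CPM values use TMM library sizes, and log2 CPM a prior count of 2. Intervals are 95% intervals from the standard error, which is the size of the log2 fold change divided by the square root of its F value. Chi-square values per degree of freedom between libraries were at least 11.0, so no library was present more than once. The labels do not say whether replicates are separate animals, and p values measure the spread between these samples. Alternatives used DESeq2 1.42.0, limma 3.58.1, other filters, covariates and fewer libraries.

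The 9 genes and the 10 lists (122 genes, all matched) were chosen with earlier results of these data known. All 9 genes were named, with the called members of each list that had the smallest adjusted p (up to 3), Gdnf, Pax2, Wt1, Wnt9b, Wnt4 and Foxd1, overlapping genes and nearest neighbours. Neighbours were not taken from predicted genes, pseudogenes, Y-linked genes or Xist. Y-linked genes had a median log2 fold change of −0.39 and 0 calls of 4 (0 at an unadjusted p under 0.05), with 0 by DESeq2.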

Additional observations from a re-analysis of the deposited data

Results flagged for a closer look

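Within groups of 4 libraries, a library was marked where its gap to the nearest other exceeded Dixon's 95% critical share of the group's range, which chance gives in about 1 of 20 groups. In all 72 groups of 36 genes were checked, and none of the 18 groups of the 9 genes was marked. Among the other genes checked, Pax2 was high in control replicate 1 (127 CPM, others 101 to 104). Wt1 and Foxd1 were low in knockout replicate 3, at 168 CPM (others 203 to 208) and 35.9 CPM (others 50.3 to 51.7), and Kap was high there (2.11 CPM, others at most 0.288). Wnt4 and Gata3 were high in control replicate 2, at 206 CPM (others 130 to 143) and 94.7 CPM (others 61.9 to 66.5).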

How the results depend on the processing

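Cited1 and Meox1 kept a negative log2 fold change in all 18 alternatives, and Six2, Eya1, Osr1, Sall1, Itga8 and Crym a positive one. Uncx was at −0.003 in the libraries with Y-linked transcripts. Wnt4 turned to −0.03, −0.04 and −0.01 without control replicates 1, 3 and 4 and to −0.11 without knockout replicate 3, with up to 0.20 in the other fits without 1 library. Wt1 turned to −0.003 with the covariate for Y-linked transcripts and to −0.06 without control replicate 4, with up to 0.15 in the other fits without 1 library. Of the 9 genes, 2 were called with all libraries (0 higher, 2 lower) and from 0 to 4 in the fits that left out 1 library each (0 to 2 higher, 0 to 2 lower). With the covariate for adrenal transcripts 1 was called, a lower one. The covariate for Y-linked transcripts and the libraries with Y-linked transcripts each added 1 called higher (Itga8 and Crym). Limma-voom with sample weights called 7 (5 higher). Without control replicate 2 and knockout replicate 3 together 6 were called (4 higher). Whether the replicate numbers pair the samples is not known. Same-numbered libraries had deviations from the group means correlated at −0.108, 0.329, 0.228 and −0.059. Control replicates 2 and 3 correlated best with the knockout of the same number, and control replicates 1 and 4 with knockout replicate 3. These values cannot decide it, since single libraries that stand apart can shape them. With the replicate number as a block 4 were called (2 higher, Six2 and Sall1), and 3229 of all genes. Over all genes 2751 were called, from 153 to 7084 without 1 library (110 to 3486 higher, 43 to 3598 lower). DESeq2 called 4506 (1997 higher, 2509 lower), limma-voom 8302 (4061 and 4241) and the fit with the adrenal covariate 1222 (600 and 622). Without control replicate 2 and knockout replicate 3 together 7903 were called (3791 and 4112). The cause of these shifts was not tested. Counts per library were high enough for all 9 genes, at 159 or more, that the spread between libraries limits the precision.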
